A study of Mus musculus with 16 samples.

Results

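The comparison described here set naive CD8 T cells that lack Tsc1 against naive CD4 T cells that lack Tsc1, both without stimulation (0 h), and asked which differences between the T cell lineages persist without Tsc1. It used 5 of the 16 arrays of the study: 2 arrays of Tsc1-deficient CD8 cells and 3 of Tsc1-deficient CD4 cells, chosen by the labels of genotype, lineage and stimulation. The same difference in wild-type cells, from 2 CD8 and 3 CD4 arrays at 0 h, served as its counterpart and shares no array with it. All cells were sorted from mice on the C57BL/6 background. The remaining 6 arrays, of CD4 cells of both genotypes stimulated for 4 h through CD3 and CD28, only added to the estimate of the spread. The genotype entries and titles name Tsc1 as the missing gene, while 1 sentence of the treatment text names Hif1a, and the genotype entries were followed here. The allele, any Cre driver, the age of the mice and any pooling of mice are not stated in the labels.

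CD4 and CD8 T cells both develop from thymocytes that carry both coreceptors. The zinc finger factor ThPOK, encoded by Zbtb7b, drives CD4 fate, and the Runt factor Runx3 silences Cd4 and drives CD8 fate. Resting CD8 cells are known to carry part of the cytotoxic machinery before they meet antigen. Tsc1 is a subunit of the TSC complex, which holds back the growth-promoting kinase complex mTORC1 and keeps naive T cells quiescent.

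A level in the text below is the log2 signal of 1 probe set, on a table whose median is 3.36, and a signal under that median is treated as dim. A lineage difference is the CD8 mean minus the CD4 mean on the log2 scale, given with its standard error (±), and a gene was called at adjusted p under 0.05 over 17097 genes in limma. The labels do not say whether arrays of a group came from separate mice, so the p-values speak only of the array-to-array spread, which may be technical. In sorted bulk samples, fewer cells of a type and less RNA per cell cannot be told apart.

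The 2 Tsc1-deficient CD8 arrays stood apart from each other, and a pair cannot say which of them is the odd one. The gap between the signals of the 3' and 5' control probe sets of Gapdh, a sign of RNA quality, was 0.28 and 0.64 on the Tsc1-deficient CD8 arrays, against 0.12 to 0.23 on the Tsc1-deficient CD4 arrays, and 0.39 and 0.40 on the wild-type CD8 arrays, against 0.11 to 0.20 on the wild-type CD4 arrays. The Tsc1-deficient CD8 arrays differed from each other by over 1 on the log2 scale in 108 genes, against 23 genes for the wild-type CD8 pair and 15 to 48 for the CD4 pairs. Counts are therefore also given without Tsc1-deficient CD8 replicate 2, the array with the higher Gapdh value.

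Tsc1 itself checked the genotype labels. The brightest of its 3 probe sets read 6.36 and 6.41 in Tsc1-deficient CD8 cells and 6.42, 6.54 and 6.5 in Tsc1-deficient CD4 cells, against 6.99 and 6.88 in wild-type CD8 cells and 7.25, 7.39 and 7.29 in wild-type CD4 cells. All 5 deficient arrays lay below all 5 wild-type arrays. The change was -0.55 ± 0.12 in CD8 cells (adjusted p = 0.0122 over all probe sets) and -0.83 ± 0.10 in CD4 cells (adjusted p = 6.70e-05). The other 2 probe sets were not called in either cell type, and their position against the deletion is unknown here. Between the deficient lineages Tsc1 differed by -0.10 ± 0.11, which was not called (adjusted p = 0.677).

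Without Tsc1, 1142 of 17097 genes (6.68%) differed between the lineages, 527 higher in CD8 cells (3.08%) and 615 lower (3.6%). Of these, 250 (1.46%) differed at least 2-fold. The arrays of the groups did not overlap for any of the 1142, but this also held for 6136 of all genes (35.9%). Without CD8 replicate 2 the count fell to 511, 321 higher and 190 lower, and 444 of the 1142 were among them. Without CD8 replicate 1 it was 1508, 479 higher and 1029 lower, so the number of modest differences and their split by direction depended on single CD8 arrays. The 15 highest and 15 lowest genes did not depend on that array: each remained called without CD8 replicate 2.

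The lineage markers followed the labels. Cd8a, the alpha chain of the CD8 coreceptor, read 11.66 and 11.56 in Tsc1-deficient CD8 cells, against 5.55, 5.59 and 5.59 in Tsc1-deficient CD4 cells, a difference of 6.03 ± 0.24 (adjusted p = 1.04e-10) or 65.5-fold. The beta chain gene Cd8b1 read 12.48 and 12.35, against 8.01, 8.28 and 8.27, a difference of 4.23 ± 0.21 (adjusted p = 1.06e-09). Both chains were thus far brighter on every CD8 array. Cd4, the CD4 coreceptor, read 4.47 and 5.13 in Tsc1-deficient CD8 cells, against 9.02, 8.95 and 8.97 in Tsc1-deficient CD4 cells, a difference of -4.18 ± 0.24 (adjusted p = 5.28e-09) or 18.1-fold lower. All 3 probe sets of Cd8a and both probe sets of Cd4 were called in these directions. Klrd1, the CD94 chain of the CD94/NKG2 receptors, read 11.59 and 11.54, against 10.49, 10.13 and 10.25, a difference of 1.27 ± 0.12 (adjusted p = 2.54e-06). It was bright in both lineages, so as a marker it separated them by level only.

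Of 17 measured genes that mark the CD8 lineage, 12 were higher in Tsc1-deficient CD8 cells and 1 was lower, with a median difference of 1.27 beside a median of 0.0036 over all genes. Of 17 that mark the CD4 lineage, 9 were lower and 0 higher, with a median of -0.76. These counts, and those of every list below, are to be read beside 3.08% of all genes called higher and 3.6% called lower. Wild-type list counts are to be read beside 2.47% and 2.57%. The lists were chosen with earlier results of these data known, and these 2 hold the coreceptor genes Cd8a, Cd8b1 and Cd4. Their counts therefore describe the arrays and are no test of lineage identity. Without CD8 replicate 2 the counts were 12 and 1 for the CD8 list and 0 and 8 for the CD4 list, and without CD8 replicate 1 they were 9 and 1, and 0 and 9. The gene that went against the CD8 list was Fasl, the death ligand for Fas. It read 3.37 and 3.37 in Tsc1-deficient CD8 cells, at the table median, against 6.35, 6.53 and 6.43 in Tsc1-deficient CD4 cells, a difference of -3.07 ± 0.19 (adjusted p = 1.34e-08).

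**Figure D1:**
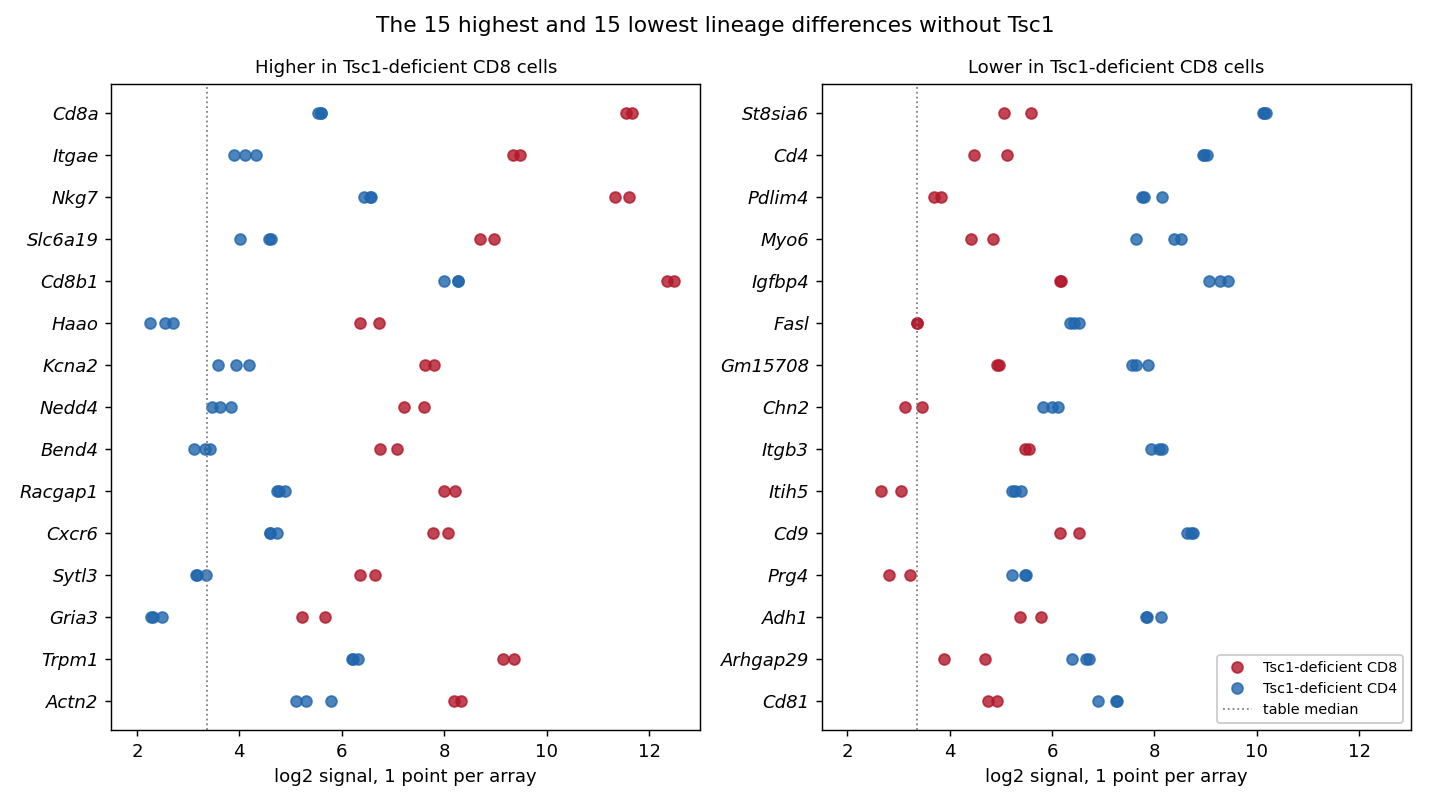
Log2 signal of the 15 highest and 15 lowest called lineage differences without Tsc1, 1 point per array (red: 2 Tsc1-deficient CD8 arrays, blue: 3 Tsc1-deficient CD4 arrays), with the table median of 3.36 dotted. The CD8 and CD4 points of a gene lie apart in every line, from 6.03 for Cd8a to -4.82 for St8sia6.

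Genes other than Cd8a rose by more than the coreceptor chain gene Cd8b1. Itgae, the integrin alpha E chain (CD103) that binds E-cadherin when paired with beta 7, read 9.35 and 9.47 in Tsc1-deficient CD8 cells, against 3.90, 4.33 and 4.12 in Tsc1-deficient CD4 cells, a difference of 5.29 ± 0.21 (adjusted p = 1.04e-10). Nkg7, a membrane protein of cytotoxic granules, read 11.60 and 11.33, against 6.43, 6.56 and 6.58, a difference of 4.94 ± 0.26 (adjusted p = 1.84e-09). The transporter gene Slc6a19, whose product carries neutral amino acids, read 8.97 and 8.70, against 4.02, 4.63 and 4.58, a difference of 4.42 ± 0.22. For each of these the CD4 arrays sat well below the CD8 arrays.

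Less familiar names filled the rest of the 15 highest. Haao, an enzyme of tryptophan breakdown, was 4.04 ± 0.18 higher, Kcna2, a voltage-gated potassium channel, 3.81 ± 0.25, and Nedd4, a ubiquitin ligase, 3.77 ± 0.17. Bend4, a BEN domain gene, was 3.63 ± 0.25 higher and Racgap1, a GTPase-activating protein of cytokinesis, 3.31 ± 0.21. Cxcr6, the receptor for CXCL16, was 3.29 ± 0.33 higher and Sytl3, a synaptotagmin-like protein of secretory vesicles, 3.28 ± 0.16. Gria3, a glutamate receptor subunit, was 3.09 ± 0.16 higher, Trpm1, a cation channel, 3.01 ± 0.18, and Actn2, an alpha-actinin, 2.87 ± 0.19. Haao, Bend4, Sytl3 and Gria3 were dim in CD4 cells, with means under the table median, so their size on this scale is limited by background. The dimmest of the 3 probe sets of Kcna2 differed by 0.10 and was not called.

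St8sia6, a sialyltransferase, led the genes that were lower in CD8 cells. It read 5.59 and 5.06 in Tsc1-deficient CD8 cells, against 10.13, 10.12 and 10.17 in Tsc1-deficient CD4 cells, a difference of -4.82 ± 0.17 (adjusted p = 3.29e-11) or 28.2-fold lower, and its other 2 probe sets gave -4.73 and -4.81. Pdlim4, a PDZ and LIM domain protein of the actin cytoskeleton, read 3.69 and 3.82, against 8.14, 7.76 and 7.79, a difference of -4.14 ± 0.13. Neither gene came near overlap between the groups. Myo6, an actin motor of the myosin family, differed by -3.55 ± 0.23, Igfbp4, which binds and restrains insulin-like growth factors, by -3.08 ± 0.22, and the predicted gene Gm15708 by -2.75 ± 0.13.

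Of the remaining lowest, Itgb3, the integrin beta 3 chain, differed by -2.55 ± 0.11, and the tetraspanins Cd9 and Cd81 by -2.37 ± 0.24 and -2.30 ± 0.16. Chn2, a GTPase-activating protein for Rac, differed by -2.68 ± 0.16 and Arhgap29 by -2.30 ± 0.17. Itih5, an inter-alpha-trypsin inhibitor heavy chain, differed by -2.44 ± 0.26, Prg4, a secreted proteoglycan known from joints, by -2.37 ± 0.16, and Adh1, an alcohol dehydrogenase, by -2.36 ± 0.18. Chn2, Itih5 and Prg4 had means under the table median in CD8 cells. A second, dim probe set of Arhgap29 differed by -0.20 and was not called.

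Of 31 measured transcription factors of CD4 and CD8 fate, 3 were higher and 5 lower, beside 3.08% and 3.6% of all genes, with a median of -0.09. Runx3 read 8.40 and 8.25 in Tsc1-deficient CD8 cells, against 7.58, 7.55 and 7.64 in Tsc1-deficient CD4 cells, a difference of 0.74 ± 0.11 (adjusted p = 0.000299) or 1.67-fold. The second Runx3 probe set differed by 0.53 and was not called. Zbtb7b, the CD4 fate factor, read 4.88 and 4.37, against 6.87, 6.33 and 6.73, a difference of -2.02 ± 0.17 (adjusted p = 4.49e-07) or 4.05-fold lower. The opposed pair of fate factors thus both differed in the direction of their lineages, Zbtb7b by the larger step.

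Eomes, a T-box factor of effector and memory CD8 cells, read 9.03 and 8.35 in Tsc1-deficient CD8 cells, against 7.08, 7.04 and 6.21 in Tsc1-deficient CD4 cells, a difference of 1.91 ± 0.40 (adjusted p = 0.00717). Its call was lost without CD8 replicate 1 (adjusted p = 0.0699). The related factor Tbx21 was dim and differed by 0.58, which was not called. Runx1, a Runt factor of early T cell development and of CD4 cells, differed by -1.11 ± 0.10 (adjusted p = 2.20e-06), and 5 of its 6 probe sets were called in that direction. Zbtb7a was 0.92 ± 0.18 higher by 1 of 3 probe sets, with its call lost without CD8 replicate 2 (adjusted p = 0.0796). Ikzf4, an Ikaros family factor, and Prdm1, the repressor Blimp-1, differed by -0.82 ± 0.15 and -0.98 ± 0.24. Both calls were lost without CD8 replicate 2, and that of Prdm1 also without CD4 replicate 1 or 2.

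Runt factors bind the letters TGTGGT, so the 250 bases before the start of the named genes were searched for them on both strands (TGTGGT or ACCACA). RefSeq windows on GRCm38.p6 existed for 12 of the 15 highest and 12 of the 15 lowest genes. The letters occurred in 4 of the 12 highest and 1 of the 12 lowest, beside 15.9% of 27025 genes with a window. The T-box letters GGTGTGA or TCACACC occurred in 1 of the 12 highest, Nkg7, and 0 of the 12 lowest, beside 3.84% of genes, and overlap no Runt match there. The windows of 3 genes that were higher in CD8 cells and of Runx3 itself are shown on the gene's strand with the Runt letters in capitals.
Nkg7 (plus strand, chr7:43436888-43437137): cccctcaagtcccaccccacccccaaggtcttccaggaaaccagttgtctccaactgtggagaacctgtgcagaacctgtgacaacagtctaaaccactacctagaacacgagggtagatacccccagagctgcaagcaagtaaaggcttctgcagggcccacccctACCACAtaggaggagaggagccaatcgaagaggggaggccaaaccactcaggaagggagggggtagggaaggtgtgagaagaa
Cxcr6 (plus strand, chr9:123806227-123806476): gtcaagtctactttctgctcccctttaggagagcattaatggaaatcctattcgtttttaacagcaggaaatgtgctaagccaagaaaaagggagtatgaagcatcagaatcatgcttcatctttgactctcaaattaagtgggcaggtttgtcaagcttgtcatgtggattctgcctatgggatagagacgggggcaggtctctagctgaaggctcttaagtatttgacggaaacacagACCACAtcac
Sytl3 (plus strand, chr17:6658809-6659058): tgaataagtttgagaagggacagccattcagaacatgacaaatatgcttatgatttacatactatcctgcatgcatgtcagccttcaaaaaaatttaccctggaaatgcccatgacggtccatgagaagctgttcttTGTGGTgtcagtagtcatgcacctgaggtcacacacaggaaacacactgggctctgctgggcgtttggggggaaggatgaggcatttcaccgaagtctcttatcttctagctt
Runx3 (plus strand, chr4:135120395-135120644): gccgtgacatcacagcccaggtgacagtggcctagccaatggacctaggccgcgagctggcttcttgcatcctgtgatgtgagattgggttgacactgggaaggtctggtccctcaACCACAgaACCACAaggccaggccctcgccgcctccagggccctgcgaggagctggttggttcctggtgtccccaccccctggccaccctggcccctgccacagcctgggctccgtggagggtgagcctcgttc
The match in Nkg7 began 83 bases before the start, that in Cxcr6 10 bases and that in Sytl3 113 bases before it. The Runx3 window shown held a pair, 134 and 126 bases before its start, while the window of a further Runx3 start held no match. The other match among the highest genes was in Actn2, the one among the lowest in Arhgap29, and Zbtb7b held a match as well. Arhgap29 and Zbtb7b each also had a window without a match. Such a match describes the letters in the window and shows no binding.

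Cytotoxic genes differed between the lineages only in part. Of 20 cytotoxic granule and killing genes, 5 were higher in Tsc1-deficient CD8 cells and 1 lower, with a median of 0.03, and the counts were the same without CD8 replicate 2. Besides Nkg7, Ctsw, a cathepsin of cytotoxic cells, read 11.35 and 11.31, against 9.15, 8.94 and 8.77 in Tsc1-deficient CD4 cells, a difference of 2.38 ± 0.18 (adjusted p = 1.44e-07). Cst7, the protease inhibitor cystatin F, was 1.76 ± 0.27 higher (adjusted p = 0.000402), and Ctsd, a lysosomal protease, 0.94 ± 0.12. Prf1, the pore-forming perforin, read 7.21 and 6.59, against 5.97, 5.45 and 5.49, a difference of 1.26 ± 0.25 (adjusted p = 0.00514), lost without CD8 replicate 1 (adjusted p = 0.0675). A second Prf1 probe set differed by 0.07 and was not called. The granzymes, the proteases that enter target cells with perforin, showed no call: Gzma differed by 0.02, Gzmb by -0.32, Gzmk by -0.03 and Gzmm by 0.39. The 95% interval for Gzma ran from -0.71 to 0.76 on the log2 scale. A missing call speaks of the difference and not of the level. Of the 20 genes, 19 had a mean above the table median in at least 1 Tsc1-deficient lineage. The array means of the list were 7.13 to 7.40 in CD8 cells and 6.87 to 6.89 in CD4 cells.

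Of 23 measured C-type lectin and natural killer receptors, 4 were higher and 1 lower, beside 3.08% and 3.6% of all genes, with a median of 0.12. Crtam, an adhesion receptor of CD8 and natural killer cells, read 7.44 and 7.47 in Tsc1-deficient CD8 cells, against 4.87, 4.60 and 4.83 in Tsc1-deficient CD4 cells, a difference of 2.69 ± 0.19 (adjusted p = 7.26e-08). Cd160, a receptor for HVEM, was 1.04 ± 0.21 higher (5.32 and 4.82, against 3.94, 4.05 and 4.11), and 2 of its 4 probe sets were called. Klra9, an Ly49 receptor, read 6.35 and 5.53, against 4.55, 4.67 and 4.53, a difference of 1.35 ± 0.22, but a probe set may not separate it from its near-identical paralogs. Klrd1 was the fourth that was higher. Fcgr3, an Fc receptor, differed by -0.76 ± 0.21, a call lost without any 1 array of either group. The other 18 members were not called, Klrk1 (-0.44) and Klrc1 (-0.13) among them.

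Genes of memory-phenotype CD8 cells counted 9 higher and 2 lower of 23, beside 3.08% and 3.6% of all genes, with a median of 0.39. The counts were 8 and 1 without CD8 replicate 2 and 6 and 2 without CD8 replicate 1. In wild-type cells the list counted 7 higher and 3 lower. Plac8, a small cysteine-rich protein, read 11.59 and 11.68 in Tsc1-deficient CD8 cells, against 9.09, 9.45 and 8.49 in Tsc1-deficient CD4 cells, a difference of 2.62 ± 0.39 (adjusted p = 0.000331). Cxcr3, a receptor for interferon-induced chemokines, read 9.24 and 7.69, against 6.39, 6.22 and 5.84, a difference of 2.32 ± 0.29. The CD8 arrays differed from each other in Cxcr3 by over 1, yet both lay above every CD4 array. Ahnak, a large scaffold protein, was 1.67 ± 0.14 higher by its bright probe set, while its 3 dim ones were not called. Il2rb, the receptor chain shared by interleukin 2 and interleukin 15, read 8.13 and 7.99, against 6.74, 6.80 and 6.5, a difference of 1.38 ± 0.18 (adjusted p = 9.44e-05). Ifng (0.48) and Ly6c1 (0.14) were not called.

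Surface receptors went both ways. Among 26 cytokine receptor chains 3 were higher and 4 lower, with 3 and 1 without CD8 replicate 2. The transforming growth factor beta receptors Tgfbr3 and Tgfbr2 differed by -1.45 ± 0.19 and -0.70 ± 0.14, and Tgfbr2 lost its call without CD8 replicate 2 (adjusted p = 0.129). Ifngr2, a chain of the interferon gamma receptor, differed by -0.94 ± 0.19, and its call was lost in the same way (adjusted p = 0.0694). The interleukin 18 receptor chains Il18rap and Il18r1 were 0.67 ± 0.18 and 0.63 ± 0.10 higher, and the call of Il18rap was lost without any 1 of the 3 CD4 arrays or without CD8 replicate 1. Of 25 chemokine receptors and homing molecules 5 were higher and 3 lower, led by Itgae, Cxcr6 and Cxcr3, with 4 and 1 without CD8 replicate 2. Itga6, the integrin alpha 6 chain, differed by -1.02 ± 0.17, and Gpr183, an oxysterol receptor that positions lymphocytes, by -0.90 ± 0.23, a call lost without any 1 array of either group.

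Of 26 costimulatory and inhibitory receptors 3 were higher and 6 lower, and 2 and 4 without CD8 replicate 2. Tnfrsf25, the death receptor family member DR3, read 5.23 and 5.22 in Tsc1-deficient CD8 cells, against 7.23, 7.24 and 7.12 in Tsc1-deficient CD4 cells, a difference of -1.97 ± 0.10 (adjusted p = 1.84e-09). Cd5, which dampens receptor signalling, read 9.89 and 10.05, against 10.95, 11.03 and 11.21, a difference of -1.10 ± 0.13. Btla, an inhibitory receptor for HVEM, differed by -1.12 ± 0.15. In contrast Cd226, an activating receptor of killer cells, was 0.97 ± 0.155 higher. The CD4 helper molecules Izumo1r, a folate receptor family member, and Trat1, a transmembrane adaptor, differed by -2.01 ± 0.17 and -1.96 ± 0.18. Cd40lg, the helper ligand for CD40, was dim in CD8 cells at 3.18 and 3.12, against 3.97, 4.06 and 3.99, and its call (-0.86 ± 0.16) was lost without CD8 replicate 2 (adjusted p = 0.0502).

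In the T cell receptor signalling list 2 of 33 were higher and 6 lower, beside 3.08% and 3.6% of all genes. The counts were 0 and 1 without CD8 replicate 2, the remaining one being Cd5, and 1 and 7 without CD8 replicate 1. Grap2, an adaptor, was 0.78 ± 0.17 higher and Fyn, a Src family kinase, differed by -0.45 ± 0.10, while the CD3 chains Cd3e (0.33), Cd3d (0.08) and Cd3g (0.0018) and the kinase Zap70 (0.14) were not called. Of 29 genes of the TSC and mTOR pathway 1 was higher and 1 lower, a share near that of all genes. Rptor, which encodes the raptor subunit of mTORC1, read 6.93 and 6.87 in Tsc1-deficient CD8 cells, against 6.02, 5.94 and 6.12 in Tsc1-deficient CD4 cells, a difference of 0.87 ± 0.10 (adjusted p = 1.68e-05). A second, dim Rptor probe set differed by 0.45 and was not called. Rheb, the GTPase that the TSC complex switches off, differed by -0.42 ± 0.09, a call lost without CD8 replicate 2 (adjusted p = 0.0624).

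Of 20 quiescence genes of naive T cells 4 were lower and 0 higher: Runx1, Ski, a repressor of SMAD signalling, at -0.60 ± 0.13, Btg2, an antiproliferative factor, at -0.44 ± 0.13, and the cell cycle inhibitor Cdkn1b at -0.35 ± 0.10. The call of Ski was lost without CD8 replicate 2, and that of Btg2 without any 1 array of either group. Cdkn1b lost its call without CD8 replicate 2, without any 1 of the 3 CD4 arrays and with probe sets averaged. Without CD8 replicate 2 the list held calls in both directions. The forkhead factor Foxo1 (0.34) and Klf2 (0.25), central to the naive state, were not called. Lysosome and autophagy genes counted 3 higher and 1 lower of 27, and 2 and 0 without CD8 replicate 2. In wild-type cells they counted 0 higher and 0 lower. Sterol and fatty acid synthesis genes counted 1 higher and 6 lower of 24, with a median of -0.34. Sqle, the squalene epoxidase, led them at -0.95 ± 0.15 (adjusted p = 0.000785), and Fdps, which makes farnesyl diphosphate, followed at -0.81 ± 0.20. Without CD8 replicate 2 the sterol list counted 0 higher and 1 lower, Sqle. In wild-type cells the sterol list counted 0 higher and 2 lower.

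**Figure D2:**
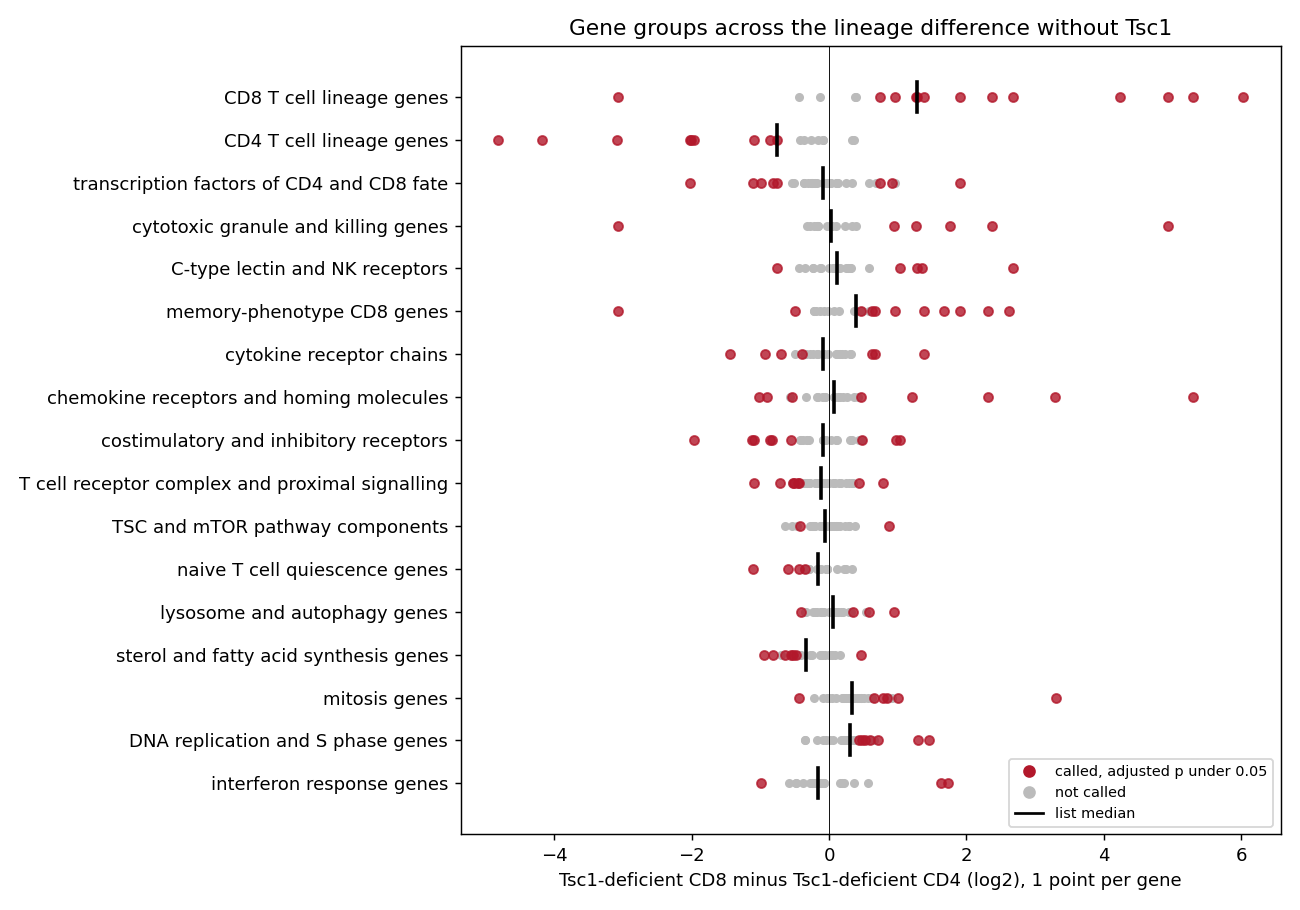
Lineage difference without Tsc1 (log2, Tsc1-deficient CD8 minus Tsc1-deficient CD4) of every measured gene of 17 gene groups, 1 point per gene, red where called, with each group's median as a bar. The CD8 list centres on 1.27 and the CD4 list on -0.76, while the medians of the other groups lie between -0.34 and 0.39.

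Of 31 DNA replication genes 7 were higher and 0 lower, beside 3.08% and 3.6% of all genes, with a median of 0.30. The counts were 7 and 0 without CD8 replicate 2 and 4 and 1 without CD8 replicate 1. In wild-type cells 6 were higher and 0 lower, and 5 were called the same way in both genotypes. Uhrf1, which keeps DNA methylation through replication, read 6.61 and 6.82 in Tsc1-deficient CD8 cells, against 5.17, 5.17 and 5.42 in Tsc1-deficient CD4 cells, a difference of 1.46 ± 0.20 (adjusted p = 0.000161). Pole, the catalytic subunit of DNA polymerase epsilon, was 1.30 ± 0.19 higher, Prim1, a primase subunit, 0.60 ± 0.10, Mcm5, of the replicative helicase, 0.52 ± 0.11, and Cdt1, a licensing factor, 0.48 ± 0.09. Rrm2, a ribonucleotide reductase subunit, was 0.72 ± 0.19 higher, and its call and that of Mcm5 were lost without CD8 replicate 1. Rrm2 also lost its call without CD4 replicate 1 or 2. Dimmer probe sets of Uhrf1 (0.81), Prim1 (0.41), Mcm5 (0.28), Rrm2 (0.26) and Cdt1 (0.36 and -0.04) were not called. With probe sets of a gene averaged the list counted 5 higher and 0 lower, and the calls of Rrm2 and Cdt1 were lost. Pcna differed by -0.35 and was not called.

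Mitosis genes counted 5 higher and 1 lower of 33, with a median of 0.33, and 4 and 0 without CD8 replicate 2. Without CD8 replicate 1 they counted 3 and 1, with a median of 0.13. In wild-type cells the mitosis list counted 3 higher and 0 lower. Racgap1 had by far the largest difference of this list, at 8.21 and 8.0 in Tsc1-deficient CD8 cells, against 4.73, 4.90 and 4.77 in Tsc1-deficient CD4 cells. Its lineage difference in wild-type cells was 3.54 ± 0.21. Mki67, a marker of proliferating cells, read 6.52 and 6.83, against 5.76, 5.84 and 5.43, a difference of 1.00 ± 0.17 (adjusted p = 0.00133). Bub1, a spindle checkpoint kinase, Cenpe, a centromere motor, and Cdca8, of the chromosomal passenger complex, were 0.84 ± 0.24, 0.78 ± 0.13 and 0.65 ± 0.14 higher. Cenpe kept its call without CD8 replicate 2. Bub1 and Cdca8 lost theirs without CD8 replicate 1 or 2, and Bub1 also without CD4 replicate 1 or 3. Second probe sets of Bub1 (-0.29) and Cdca8 (0.25) were not called, while that of Cenpe (0.88) was. Cenpa, the centromeric histone, differed by -0.43 ± 0.12, a call lost without CD8 replicate 2 and without CD4 replicate 2 or 3. With probe sets of a gene averaged, the calls of Bub1, Cdca8 and Cenpa were lost. The Gapdh 3' to 5' difference was higher on the CD8 arrays, and with it as a covariate the mitosis list counted 10 higher and 0 lower and the replication list 12 and 0.

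Interferon response genes counted 2 higher and 1 lower of 25, beside 3.08% and 3.6% of all genes. Oas3, an antiviral synthetase, was 1.73 ± 0.35 higher, Mx1, an antiviral GTPase, 1.64 ± 0.47, and Ifit2, an interferon-induced RNA-binding protein, differed by -0.99 ± 0.22. All 3 calls were lost without CD8 replicate 2, with differences of 1.71, 1.79 and -0.72 there. The call of Mx1 was lost without any 1 array of either group.

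Markers of other cells were listed for the same arrays. Cd79b, a chain of the B cell receptor, read 8.28 and 8.28 in Tsc1-deficient CD8 cells, against 5.86, 5.93 and 6.56 in Tsc1-deficient CD4 cells, a difference of 2.17 ± 0.20 (adjusted p = 1.50e-06). It was the 1 of 17 B cell genes called, and its lineage difference in wild-type cells was 1.80 ± 0.20. The other chain Cd79a differed by 0.15 and Ms4a1 by -0.12, Pax5 was under the table median on all 5 arrays, and the array means of the list were 5.09 to 5.16 in CD8 cells and 4.96 to 5.50 in CD4 cells. Of 13 natural killer genes 2 were higher, Klra9 and Cd160, with array means of 4.65 to 4.85 in CD8 cells and 4.56 to 4.75 in CD4 cells, and the defining receptors Ncr1 and Klrb1c were under the table median on all 5 arrays. Of 14 regulatory T cell genes 1 was higher, Itgae, and 3 lower, Izumo1r, Ikzf4 and Capg, an actin-capping protein (-0.89 ± 0.14), with array means of 5.80 to 5.93 and 5.72 to 5.96. Foxp3, the factor that defines those cells, differed by -0.33 and was not called.

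None of 13 neutrophil genes was called in limma, nor was any at an unadjusted p under 0.05, with array means of 3.99 to 4.66 in CD8 cells and 3.91 to 5.16 in CD4 cells. Of 17 myeloid genes 1 was lower, Itgam, itself dim, with array means of 3.88 to 4.01 and 4.01 to 4.19, and 1 was higher and 0 lower without CD8 replicate 2. None of 13 erythroid and platelet genes and none of 5 gamma delta T cell genes was called in limma, nor at an unadjusted p under 0.05, with array means of 3.59 to 3.70 and 3.53 to 3.90, and of 3.44 to 3.53 and 3.27 to 3.59. Of 17 thymocyte genes 3 were higher, Cd8a, Ccr9 and Themis (0.44 ± 0.12), and 3 lower, Cd4, St6gal1 (-0.66 ± 0.16) and Dntt (-0.87 ± 0.25), with array means of 6.68 to 6.69 and 6.57 to 6.71, while Rag1 and Rag2 were under the table median throughout. The call of Dntt was lost without any 1 array of either group. Themis and St6gal1 lost theirs without CD8 replicate 2 and without some single CD4 arrays, and Themis also without CD8 replicate 1. The part of these cells in the lineage differences was not tested.

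**Figure D3:**
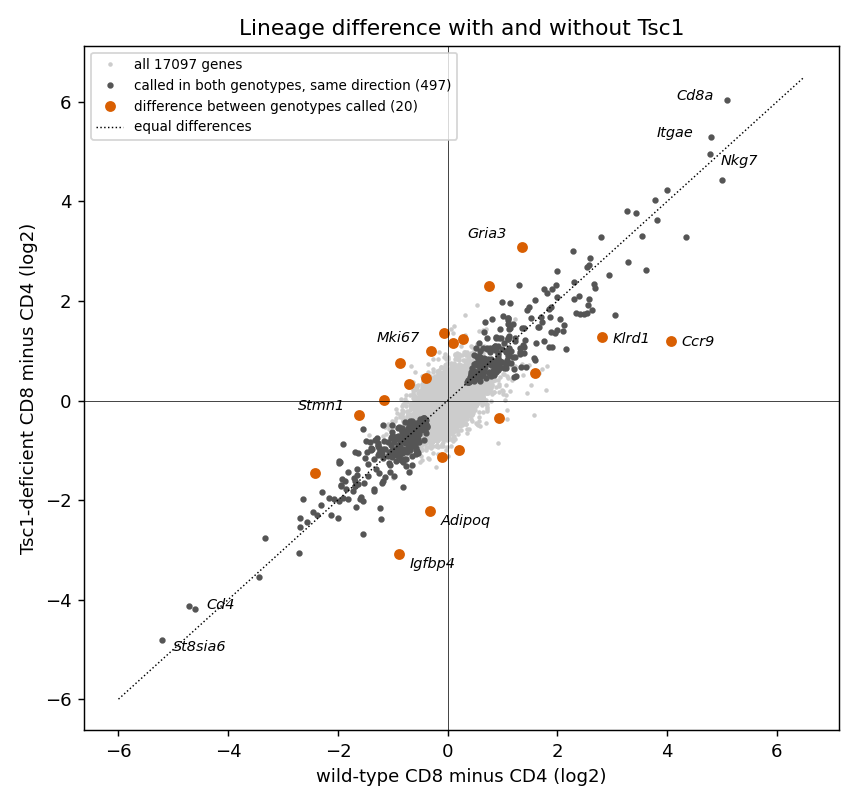
Lineage difference of 17097 genes without Tsc1 (vertical axis, Tsc1-deficient CD8 minus CD4, log2) against that in wild-type cells (horizontal axis, wild-type CD8 minus CD4, log2), 1 point per gene. Dark points are the 497 genes called the same way in both, and orange points are the 20 genes called for the difference between the genotypes, some of which are also among the 497, drawn against a dotted line of equal differences.

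In wild-type cells 862 genes (5.04%) differed between the lineages, 423 higher in CD8 cells (2.47%) and 439 lower (2.57%). Of these, 817 (94.8%) had the same direction in Tsc1-deficient cells and 497 were also called there in that direction, 248 higher and 249 lower in CD8 cells. The 497 make up 43.5% of the Tsc1-deficient list and 57.7% of the wild-type list. Along the wild-type direction the 862 genes had a median difference of 0.56 without Tsc1, beside 0.73 in the wild-type cells in which they were chosen. Taken the other way, the 1142 genes called without Tsc1 had a median of 0.68 there and of 0.43 in wild-type cells. Each list was thus larger in the genotype that chose it, so neither pair of medians measures a change in size. Without Tsc1-deficient CD8 replicate 2, 345 of 916 genes called in wild-type cells were called the same way without Tsc1. Without replicate 1 it was 446 of 916, and without the 2 arrays with high Gapdh differences, a choice made after seeing the data, 516 of 1324. Wild-type list counts, higher and lower in CD8 cells, were 10 and 1 for the CD8 list and 0 and 11 for the CD4 list. Fate factors counted 1 and 7, cytotoxic genes 5 and 3, lectin receptors 3 and 1 and homing molecules 4 and 1. Cytokine receptors counted 3 and 3, costimulatory receptors 3 and 8 and receptor signalling 2 and 3. The mTOR pathway counted 1 and 1, quiescence 0 and 6 and interferon response 1 and 1.

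Among larger differences the share was higher. Of 247 genes (1.44%) called at least 2-fold in wild-type cells, 245 had the same direction and 212 (85.8%) were called without Tsc1. The 2 exceptions, chosen after their values were seen, were Dusp6, a phosphatase for ERK, at -0.38 without Tsc1 and 1.08 in wild-type cells, and Rnf43, a ubiquitin ligase of Wnt receptors, at 0.0016 and -1.16. All 30 of the largest differences without Tsc1 were called in the same direction in wild-type cells, where they measured 1.35 to 5.09 among the highest and -0.88 to -5.21 among the lowest. The difference between the genotypes itself was called for 1 of the 15 highest, Gria3, and 1 of the 15 lowest, Igfbp4. Over all probe sets, dimmer ones of 2 more of the highest were called for it: that of Nedd4 differed by -1.08 ± 0.18 (adjusted p = 0.0296), opposite in sign to its brighter probe set (0.35), and that of Trpm1 by 1.17 ± 0.20 (adjusted p = 0.0373), beside 0.72 for its brighter one.

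For the genes that define the lineages, the difference between genotypes is given with its interval, for 1 probe set per gene. Cd8a had a lineage difference of 6.03 ± 0.24 without Tsc1 and 5.09 ± 0.24 in wild-type cells, 0.94 apart with a 95% interval of 0.23 to 1.66 (adjusted p = 0.554). Cd4 had -4.18 ± 0.24 and -4.60 ± 0.24, 0.42 apart (-0.28 to 1.13). Zbtb7b was -2.02 ± 0.17 and -1.985 ± 0.17, -0.03 apart (-0.53 to 0.46). The second Zbtb7b probe set, called in both genotypes, gave -1.43 ± 0.15 and -2.17 ± 0.15, 0.75 ± 0.21 apart (adjusted p = 0.3825), a value outside that interval. Nkg7 was 4.94 ± 0.26 and 4.78 ± 0.26, 0.17 apart (-0.60 to 0.94). Runx3 was 0.74 ± 0.11 and, in wild-type cells, 0.32 ± 0.11 (not called, adjusted p = 0.122), and the difference of 0.42 (0.10 to 0.74) was not called (adjusted p = 0.555). The intervals are unadjusted. Those of Cd8a and Runx3 leave out 0, yet none of these 5 genes passed the test over all genes.

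Of the 643 genes called without Tsc1 and not in wild-type cells, 7 were called for the difference between genotypes. Of the 363 genes called in wild-type cells alone, 4 were. A call in one genotype alone therefore seldom came with a called difference between them. In simulated data the test of that difference called 5% of changes of 0.5 and 70% of changes of 1 on the log2 scale. The test between the Tsc1-deficient lineages called 28% and 99% of such changes. False calls numbered 6 and 11 in these tests. The shares hold for the simulated arrays, and whether the wider spread of the Tsc1-deficient CD8 pair alters them was not tested. A missing call for the difference therefore does not show that a lineage difference was equal in both genotypes.

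That difference was called for 20 genes (0.117%), 12 with a higher (0.0702%) and 8 with a lower (0.0468%) lineage difference without Tsc1, and 17 of them (0.0994%) at least 2-fold. At an unadjusted p under 0.05 it held for 1328 genes.

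**Figure D4:**
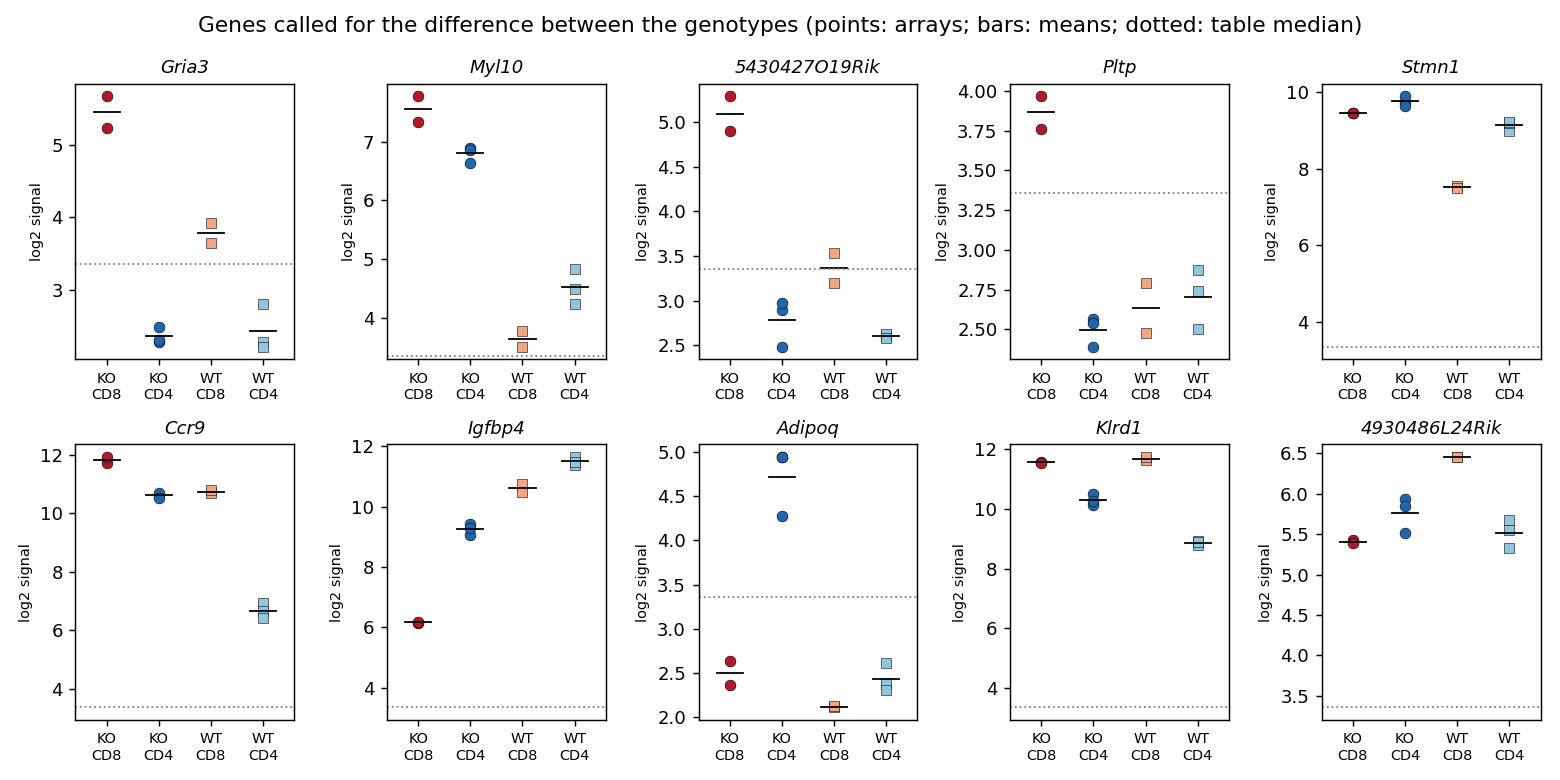
Log2 signal on each array of the 5 genes with the highest (top) and the 5 with the lowest (bottom) called difference between genotypes, in Tsc1-deficient (KO) CD8 and CD4 cells and in wild-type (WT) CD8 and CD4 cells, with means as bars and the table median of 3.36 dotted. Ccr9 and Klrd1 are higher in Tsc1-deficient than in wild-type CD4 cells, and Stmn1 is higher in Tsc1-deficient than in wild-type CD8 cells.

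Ccr9, the receptor for the gut chemokine CCL25, had the largest of these differences. It read 11.70 and 11.92 in Tsc1-deficient CD8 cells, against 10.63, 10.67 and 10.52 in Tsc1-deficient CD4 cells. In wild-type cells it read 10.68 and 10.78 in CD8 cells, against 6.94, 6.65 and 6.41 in CD4 cells. Its lineage difference was 1.21 ± 0.21 without Tsc1 and 4.07 ± 0.21 in wild-type cells, a difference of -2.86 ± 0.30 (adjusted p = 0.000775). The wild-type CD4 arrays were the ones that stood low, and the Tsc1-deficient CD4 arrays were close to the wild-type CD8 arrays and below the Tsc1-deficient CD8 arrays. Of the other 3 probe sets of Ccr9, 2 gave -2.60 and -2.51, and the dimmest gave 0.0007.

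Klrd1 narrowed in the same way. It read 11.59 and 11.54 in Tsc1-deficient CD8 cells, against 10.49, 10.13 and 10.25 in Tsc1-deficient CD4 cells, and 11.63 and 11.74 in wild-type CD8 cells, against 8.78, 8.94 and 8.89 in wild-type CD4 cells. The lineage difference of 1.27 ± 0.12 without Tsc1 was -1.54 ± 0.17 from the wild-type one of 2.82 ± 0.12 (adjusted p = 0.000775). CD8 arrays of both genotypes lay close together, and the wild-type CD4 arrays lay below the Tsc1-deficient CD4 arrays.

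Stmn1, which destabilises microtubules, was called between the lineages in wild-type cells alone. It read 9.46 and 9.46 in Tsc1-deficient CD8 cells, against 9.75, 9.63 and 9.90 in Tsc1-deficient CD4 cells, a difference of -0.30 ± 0.11 that was not called (adjusted p = 0.109). Wild-type CD8 cells read 7.55 and 7.5, against 9.0, 9.20 and 9.21 in wild-type CD4 cells, a difference of -1.61 ± 0.11. The genotypes were 1.31 ± 0.15 apart (adjusted p = 0.000775), with the wild-type CD8 arrays below all others. A second probe set gave 1.25. Mki67 showed a lineage difference of 1.00 ± 0.17 without Tsc1 and of -0.31 ± 0.17 in wild-type cells, 1.31 ± 0.24 apart (adjusted p = 0.0492, and 0.0533 with all probe sets in the adjustment), at means of 6.68 and 5.68 in Tsc1-deficient CD8 and CD4 cells and of 3.69 and 4.00 in wild-type CD8 and CD4 cells.

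Igfbp4 widened. It read 6.16 and 6.18 in Tsc1-deficient CD8 cells, against 9.43, 9.06 and 9.28 in Tsc1-deficient CD4 cells, and 10.75 and 10.47 in wild-type CD8 cells, against 11.64, 11.36 and 11.48 in wild-type CD4 cells. Its lineage difference was -3.08 ± 0.22 without Tsc1 and -0.88 ± 0.22 in wild-type cells, -2.20 ± 0.31 apart (adjusted p = 0.00637). All 6 probe sets were lower in CD8 cells without Tsc1, with genotype differences from -0.11 to -2.44, and leaving out wild-type CD8 replicate 1 removed the call of the brightest (adjusted p = 0.0638). Over all probe sets, those at -1.89 (adjusted p = 0.0511 in limma), -0.19 and -0.11 were not called for the difference between genotypes.

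The remaining genes of the rule follow, several of them dim in some groups. Gria3 had a lineage difference of 3.09 ± 0.16 without Tsc1 and 1.35 ± 0.16 in wild-type cells, 1.74 ± 0.23 apart (adjusted p = 0.00322), with all CD4 arrays under the table median. A second Gria3 probe set gave 1.44 ± 0.27, which was not called (adjusted p = 0.0533 in limma over all probe sets). Adipoq, the hormone adiponectin, was above the median in Tsc1-deficient CD4 cells alone, at 4.94, 4.27 and 4.94, against 2.64 and 2.37 in Tsc1-deficient CD8 cells, and its difference was -1.90 ± 0.25 (adjusted p = 0.00322). Pltp, a phospholipid transfer protein, was above it in Tsc1-deficient CD8 cells alone, at 3.97 and 3.76, and its difference was 1.44 ± 0.19 (adjusted p = 0.00333). Myl10, a myosin light chain, was called in opposite directions, at 0.75 ± 0.19 without Tsc1 and -0.88 ± 0.19 in wild-type cells. The Myl10 means were 7.55 and 6.80 in Tsc1-deficient CD8 and CD4 cells, and 3.65 and 4.53 in wild-type CD8 and CD4 cells. Rab11fip4, a vesicle trafficking protein named after its values were seen, was the other gene called in opposite directions, at 0.46 and -0.40. The unnamed transcripts 5430427O19Rik and 4930486L24Rik differed by 1.55 ± 0.27 and -1.30 ± 0.24.

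**Figure D5:**
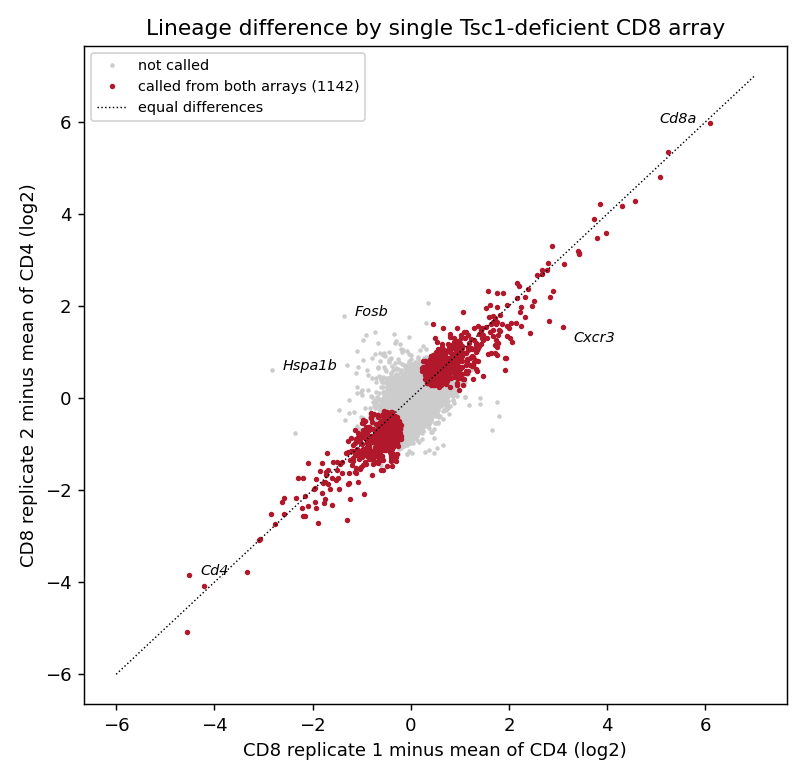
Lineage difference without Tsc1 computed from CD8 replicate 2 alone (vertical axis, log2) against that from CD8 replicate 1 alone (horizontal axis, log2), each minus the mean of the 3 Tsc1-deficient CD4 arrays, 1 point per gene. The large differences lie on the line of equal values (dotted), while Fosb, Hspa1b and Cxcr3 lie off it.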

How the data were processed

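RNA of sorted T cells was measured on Affymetrix arrays. Per the submitters' processing notes, the deposited table was made with RMA and Partek 6.5, and its values are log2 signals, already normalized by the authors. No source used here names a genome build. Of 45141 probe sets, 28898 carry a single gene name, and the one with the highest mean over the 16 arrays stood for each of 17097 genes. The difference in log2 signal was fitted in limma 3.58.1 (R 4.3.3) with 1 mean per group over all 16 arrays (10 residual degrees of freedom) and adjusted with Benjamini-Hochberg over all genes. The wild-type comparison shares no array with the Tsc1-deficient one but shares this estimate of the spread. Methods were tested on simulated data. The number of arrays limits the precision.

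Genes were named by rule: called, with groups that do not overlap and a higher mean above the table median, the 15 highest and 15 lowest differences and the 5 highest and 5 lowest differences between genotypes, plus Tsc1, the markers and up to 6 called members of each list. Members that were not called are named as examples. The members and lists were chosen with earlier results of these data known, and lists share members. Promoter windows are from RefSeq (GRCm38.p6). Alternatives changed the choice of probe set, filter, normalization, model and arrays.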

Additional observations from a re-analysis of the deposited data

Results flagged for a closer look

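Of the 20 genes that passed the test of the difference between the genotypes (adjusted p under 0.05 in limma), 11 are among those named by rule, and the signed lineage difference (CD8 minus CD4, log2) without Tsc1 minus that in wild-type cells is given for each. It was 1.74 for Gria3, 1.55 for 5430427O19Rik, 1.44 for Pltp and 1.31 for Mki67, whose lineage difference was larger without Tsc1. It was 1.31 for Stmn1, lower in CD8 cells of wild-type mice and not called without Tsc1, and 1.63 for Myl10, called in opposite directions. It was -2.86 for Ccr9 and -1.54 for Klrd1, whose lineage difference was smaller without Tsc1. It was -2.20 for Igfbp4, which was lower in CD8 than in CD4 cells by more without Tsc1 than in wild-type cells. For Adipoq, called between the lineages without Tsc1 alone, it was -1.90. The Adipoq mean was 4.72 in Tsc1-deficient CD4 cells. In Tsc1-deficient CD8, wild-type CD8 and wild-type CD4 cells it was 2.50, 2.12 and 2.44. The value was -1.30 for 4930486L24Rik, called between the lineages in wild-type cells alone.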

How the results depend on the processing

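Among the genes named by rule, no called value turned its direction under any alternative run. The level of Tsc1 in Tsc1-deficient CD8 minus CD4 cells, which was not called, was -0.10 and became 0.05 with probe sets averaged. That of Fosb, also not called, was 0.21 and became -1.36 without Tsc1-deficient CD8 replicate 2. The 1142 lineage differences without Tsc1 became 511 to 1508 when 1 of the compared Tsc1-deficient arrays was left out, and 250 at 2-fold or more. The count was lowest without Tsc1-deficient CD8 replicate 2 and highest without replicate 1. The 862 in wild-type cells became 416 to 620 when 1 of the compared wild-type arrays was left out. They became 765 to 916 when 1 resting Tsc1-deficient array was left out. The count was 1391 with array weights, 1324 without the 2 arrays of high Gapdh 3' to 5' difference and 247 at 2-fold or more. The 20 differences between genotypes became 7 to 24 when 1 array was left out, 32 over all probe sets, 11 for genes above the table median and 31 without the 2 arrays of high Gapdh difference. The 497 shared differences became 296 to 446 when 1 array was left out and 282 at adjusted p under 0.01 in both genotypes. Fewer arrays, fewer features or a stricter threshold are part of those settings, and for the others the cause was not tested. The settings that use the Gapdh difference were chosen after seeing the data, and with it as a covariate 963 genes were called, 843 of them among the 1142. The alternatives for the difference between genotypes were read gene by gene only for the 5 highest and 5 lowest. It was lost for 4930486L24Rik in 13 settings, for 5430427O19Rik in 8, for Myl10 in 6 and for Igfbp4 in 1. Mki67, at adjusted p = 0.0492 in limma, was not followed through those settings. It lost the call when adjusted over all probe sets (adjusted p = 0.0533). Low signal near the table median limits the dim genes. The replicate numbers used here follow the order of the arrays within each group and mark no pairing between groups. The titles carry running numbers, consecutive for CD4 arrays at 0 h and 4 h, whose meaning is not stated. No paired analysis was run, and any pairing of these arrays was left out of the estimate of the spread.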

Other observations

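Immediate early and heat shock genes, chosen after their values were seen, split the arrays within groups. Fosb, a subunit of the AP-1 factor, read 5.39 and 8.53 in Tsc1-deficient CD8 cells, 4.90, 7.47 and 7.88 in Tsc1-deficient CD4 cells, 7.60 and 7.68 in wild-type CD8 cells and 4.06, 6.83 and 6.62 in wild-type CD4 cells. Tnfaip3, an inhibitor of NF-kappa B signalling, read 8.66 and 10.40, then 8.47, 10.32 and 10.39, then 10.85 and 10.58, then 8.41, 10.27 and 10.22 in the same order of groups. The first array of a group in series order (replicate 1) was thus the low one in 3 of the 4 groups for both genes. Hspa1b, a heat shock protein, read 3.70 and 7.12 in Tsc1-deficient CD8 cells, 3.42, 7.97 and 8.18 in Tsc1-deficient CD4 cells, 9.02 and 8.16 in wild-type CD8 cells and 8.33, 9.66 and 9.23 in wild-type CD4 cells. None of these genes was called between the Tsc1-deficient lineages.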
